A study of Rattus norvegicus with 12 samples.

Results

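Toll-like receptors and their first signalling partners were followed in rat fibroblast-like synoviocytes (FLS) as a set of 9 genes, Tlr2, Tlr3, Tlr4, Cd14, Ly96, Myd88, Irak1, Irak4 and Traf6. Members were found by their gene name in a table of 22442 gene records, and where several records shared a name the one with the highest mean level was used. Of the 9 genes, 8 had a record, and 7 of them were among the 11611 records tested, those averaging 1 FPKM or more over the libraries. FPKM counts the fragments of a transcript relative to its length and to the size of the library. Tlr2 was under that level, and Ly96 was found under neither its symbol nor the older name MD-2 and was not analysed here.

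All 12 libraries came from FLS grown out of the synovium of male Sprague Dawley rats with adjuvant arthritis (AA), raised by an injection of complete Freund's adjuvant, and used at the third passage. Cells of the FCA group were kept in DMEM, and the bile acid taurochenodeoxycholic acid (TCDCA) was added for 12 h at 10 µM in AT10, at 1 µM in AT1 and at 0.1 µM in AT01, with 3 libraries in each of the 4 groups. No FLS of rats without arthritis were among the samples, so every comparison was between cells of arthritic joints. The replicate numbers are described only as repeats, without saying whether these were separate rats or cultures, and p-values therefore measure the spread between these libraries, which may be technical.

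Toll-like receptors recognise microbial molecules and molecules released by damaged cells. TLR2 and TLR4 act at the cell surface, on bacterial lipoproteins and on lipopolysaccharide, and TLR3 acts in endosomes on double-stranded RNA. CD14 passes lipopolysaccharide to the complex of TLR4 with MD-2, the product of Ly96. TLR2 and TLR4 recruit the adaptor MyD88, which assembles the kinases IRAK4 and IRAK1, and the ubiquitin ligase TRAF6 then carries the signal towards NF-κB and the MAP kinases, whereas TLR3 signals through the adaptor TRIF. In the inflamed joint, FLS are known to answer Toll-like receptor ligands with cytokines, chemokines and matrix-degrading enzymes.

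Promoters of 7 of the 9 members were found in the RefSeq table of the rat build GRCr8, each from 250 bases before to 50 bases after the start of the gene, and the promoters of Ly96 and Traf6 were not. Those of Tlr4 and Myd88 are shown because Tlr4 had low and high libraries within each group and because Myd88 was the member whose groups stood apart at more than 1 dose. The Tlr4 promoter lies at chr5:85160997-85161296 on the plus strand and the Myd88 promoter at chr8:127956181-127956480 on the minus strand. Capitals mark matches to the motifs searched.
Tlr4: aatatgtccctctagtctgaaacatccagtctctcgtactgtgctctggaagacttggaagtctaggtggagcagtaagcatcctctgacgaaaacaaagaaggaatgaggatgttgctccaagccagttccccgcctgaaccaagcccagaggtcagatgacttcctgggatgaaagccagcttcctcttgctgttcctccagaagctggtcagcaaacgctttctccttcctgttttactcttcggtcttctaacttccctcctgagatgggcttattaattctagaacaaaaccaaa
Myd88: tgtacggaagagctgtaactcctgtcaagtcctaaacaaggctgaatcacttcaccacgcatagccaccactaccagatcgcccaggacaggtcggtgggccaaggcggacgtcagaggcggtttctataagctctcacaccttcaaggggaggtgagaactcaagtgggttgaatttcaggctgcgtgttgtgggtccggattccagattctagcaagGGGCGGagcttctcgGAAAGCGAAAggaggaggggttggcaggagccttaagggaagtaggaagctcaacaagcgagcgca
The 4 motifs were searched on both strands. The NF-κB motif GGGACTTTC was in 0.326% of all 33469 promoters of this length and in 0 of the 7 members' promoters, and TATAAA was in 14.2% of all promoters and in 0 of the 7. The interferon response motif, TTTC, any 2 bases and TTTC, was in 3.92% of all promoters and, among the members, in that of Myd88. GGGCGG, the core of the GC box, was in 33.1% of all promoters and in those of Tlr2, Myd88 and Irak4. In the Myd88 promoter the matches did not overlap, and a match is a description of the letters and not a binding site.

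Levels of FPKM are per transcript length, so members can be set in an order. Irak1 was highest, with a mean of 22.8 FPKM over the 12 libraries, and its lowest library was above the highest of any other member. Myd88 (14.7 FPKM) and Cd14 (13.8 FPKM) came next and were not separable, since Myd88 was above Cd14 in 3 of 12 libraries despite its higher mean. Irak4 followed at 4.76 FPKM, Traf6 at 2.25, Tlr3 at 1.97, Tlr4 at 1.19 and Tlr2 at 0.309. Of the neighbours in this order, Irak1 and Myd88 did not overlap and Irak4 and Traf6 did not overlap, whereas the ranges of all other neighbours did. By mean level of the records used, the 3 receptors were the lowest members, although Traf6 overlapped Tlr3 and the other Traf6 record was between 0.47 and 1.52 FPKM.

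**Figure D1:**
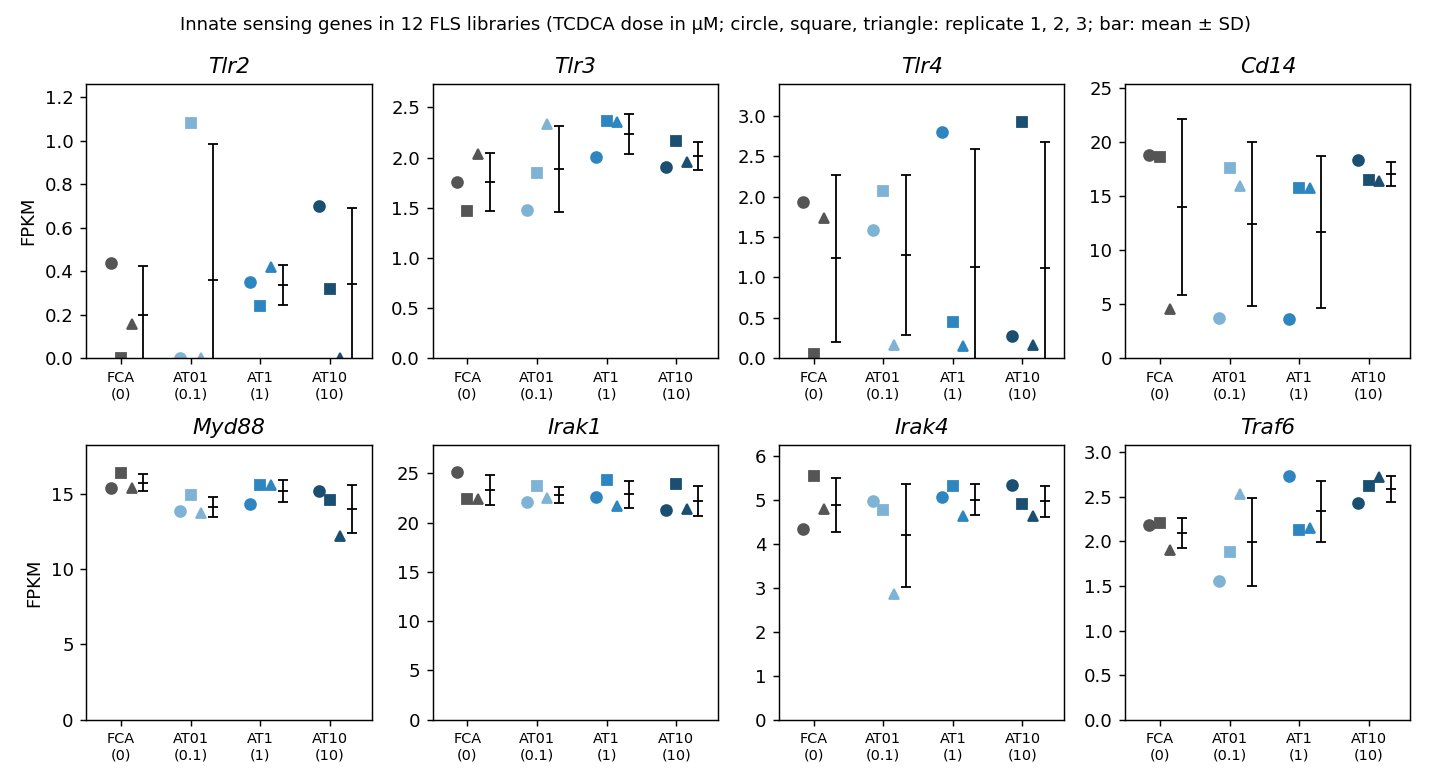
Level of the 8 members with a record in each library, in FPKM (vertical axes from 0, a separate scale for each gene), by group with the TCDCA dose in µM below the group name. Points are libraries and bars are the mean and SD of 3, with lower ends under 0 not drawn. Cd14 sits between 3.6 and 4.6 FPKM in 3 libraries and between 15.7 and 18.82 FPKM in the other 9, Irak1 stays between 21.27 and 25.11, and Irak4 has 1 low library in AT01.

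Tlr2, the receptor for bacterial lipoproteins, was close to the limit of the table. It read 0.44, 0 and 0.16 FPKM in FCA, 0, 1.08 and 0 in AT01, 0.35, 0.24 and 0.42 in AT1, and 0.7, 0.32 and 0 in AT10. It was listed at 0 in 4 of the 12 libraries, in every group but AT1, and the groups overlapped.

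Tlr3, the receptor for double-stranded RNA, was low in every library and had a narrow range. It read 1.76, 1.47 and 2.04 FPKM in FCA, 1.48, 1.85 and 2.33 in AT01, 2.01, 2.36 and 2.35 in AT1, and 1.91, 2.17 and 1.96 in AT10. AT1 was the highest group and held 2 libraries above all of FCA, but each treated group overlapped FCA. On the log2(FPKM + 1) scale, on which all fold changes here are given and which understates those of low genes, AT1 was above FCA by 0.24 ± 0.11 (SE, n = 3 against 3, limma adjusted p = 0.463, exact permutation p = 0.2). AT10 and AT01 were above FCA by 0.13 and 0.06 (limma adjusted p = 0.634 and 0.937).

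Tlr4, the receptor for lipopolysaccharide, was high in some libraries and close to 0 in others of the same group. It read 1.93, 0.05 and 1.73 FPKM in FCA, 1.59, 2.07 and 0.17 in AT01, 2.8, 0.45 and 0.15 in AT1, and 0.28, 2.92 and 0.17 in AT10. In 6 libraries it was between 1.59 and 2.92 FPKM and in the other 6 between 0.05 and 0.45, and every group held both. The group means of 1.24 ± 1.03 FPKM in FCA, 1.28 ± 0.99 in AT01, 1.13 ± 1.45 in AT1 and 1.12 ± 1.56 in AT10 (SD, n = 3) were therefore within each other's spread. The log2 fold change was -0.17 for AT10 (95% interval -1.72 to 1.37), -0.14 for AT1 and 0.05 for AT01, with limma adjusted p-values from 0.924 to 0.990. The interval of AT10 reached past 1 in both directions, and a change of Tlr4 within it was not detectable with these libraries. The direction turned in each of the 3 comparisons when a library was left out, with values from -0.73 to 0.14 for AT10, -0.65 to 0.21 for AT1 and -0.43 to 0.47 for AT01.

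A second record carries the name Tlr4 and holds an assembled transcript with no Ensembl identifier, whereas the record used holds the Ensembl transcript. The second record read 0.88, 0 and 0.8 FPKM in FCA, 0.66, 0.89 and 0 in AT01, 1.2, 0.65 and 0 in AT1, and 0, 1.53 and 0 in AT10. The 6 libraries with high values of the first record were above 0 in the second, as was AT1 replicate 2, and the remaining 5 were listed at 0. Over the 12 libraries the records had a Pearson correlation of 0.95 on the log2(FPKM + 1) scale, and they share libraries and neighbouring sequence.

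Cd14, the co-receptor that hands lipopolysaccharide to TLR4, stood at 2 separate levels. It read 18.82, 18.58 and 4.6 FPKM in FCA, 3.72, 17.61 and 15.93 in AT01, 3.6, 15.7 and 15.73 in AT1, and 18.35, 16.46 and 16.36 in AT10. The low libraries were FCA replicate 3, AT01 replicate 1 and AT1 replicate 1, from 3.6 to 4.6 FPKM, and the other 9 lay between 15.7 and 18.82 FPKM. A gap of this kind, at least 1 on the log2 scale, larger than the spread inside each level and with 2 or more libraries on either side, was found in 525 of the 11611 records tested (4.52%). Cd14 was the member of the set that met it. On the log2(FPKM + 1) scale the gap of Tlr4 was also larger than the spread inside its levels (0.84 against 0.47 and 0.60). The gap stayed under 1 on that scale, which understates gaps of low genes but also the spread inside a low level. The low level of Tlr4 ran from 0.05 to 0.45 FPKM, so whether its gap exceeds its spread depends on the scale.

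The low level fell in untreated and in treated cells. The log2 fold change of Cd14 against FCA was 0.48 for AT10 (95% interval -0.79 to 1.75, limma adjusted p = 0.713), -0.25 for AT1 and -0.18 for AT01 (limma adjusted p = 0.902 and 0.964). For the 9 TCDCA libraries together the difference was 0.01 on the log2 scale (95% interval -1.18 to 1.21). Without FCA replicate 3 the value of AT10 turned to -0.13 and that of the 9 libraries to -0.59, and the latter also turned without any 1 of the 7 treated libraries with high Cd14, to values between -0.06 and -0.03. Without AT1 replicate 1 the value of AT1 turned to 0.37, and without AT01 replicate 1 that of AT01 turned to 0.45. Both also turned positive without FCA replicate 1 (0.05 and 0.12) and without FCA replicate 2 (0.05 and 0.12). In RNA of whole cultures, fewer cells of a type and less RNA per cell cannot be told apart, which holds for each result given here.

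The libraries with low Cd14 all had high Tlr4, at 1.73, 1.59 and 2.8 FPKM, but 3 libraries with high Cd14 had high Tlr4 as well. The Pearson correlation of the pair was -0.49 over 12 libraries, a description over points that share a culture protocol and groups. CD14 is also a marker of macrophages, and 12 macrophage and monocyte markers were therefore looked up, of which 8 had a record. Their summed level was 3.06 to 3.54 FPKM in FCA, 3.15 to 4.34 in AT01, 2.5 to 2.8 in AT1 and 2.91 to 4.08 in AT10. In the 3 libraries with low Cd14 the sum was 3.23, 4.34 and 2.8 FPKM, inside the range of the other 9 or above it. Adgre1, Aif1 and Mrc1 did not pass 0.03 FPKM in any library, and Csf1r did not pass 0.26, Fcer1g 0.5, Spi1 0.93 and Lyz2 1.0. Cd68, between 1.66 and 2.91 FPKM, had the highest mean of the 8 and so weighed most in the sum. Cd163, Ptprc, Itgam and Tyrobp had no record.

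**Figure D2:**
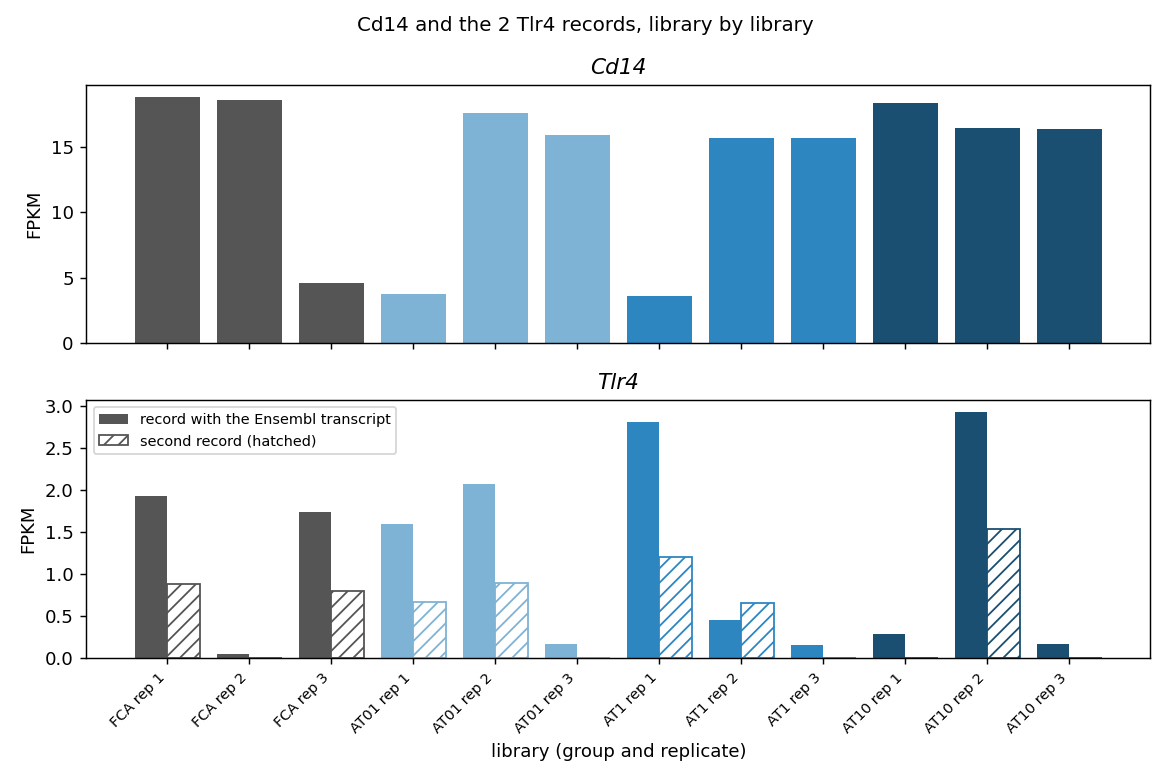
Cd14 (upper panel) and the 2 records named Tlr4 (lower panel, filled for the record used and hatched for the second) in each of the 12 libraries, in FPKM on axes from 0, coloured by group. Cd14 is low in FCA replicate 3, AT01 replicate 1 and AT1 replicate 1, and the Tlr4 records are high or near 0 within every group.

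Myd88, the adaptor shared by most Toll-like receptors and the interleukin 1 receptor, was lower in AT10 and in AT01 without overlap, but by a small amount that did not pass the test. It read 15.39, 16.35 and 15.36 FPKM in FCA, 13.82, 14.89 and 13.69 in AT01, 14.31, 15.58 and 15.59 in AT1, and 15.14, 14.59 and 12.2 in AT10. All 3 libraries of AT10 and all 3 of AT01 were below every FCA library, whereas AT1 overlapped FCA. The log2 fold change was -0.16 ± 0.09 for AT10 (SE, n = 3 against 3, limma adjusted p = 0.532, exact permutation p = 0.1) and -0.14 ± 0.07 for AT01 (limma adjusted p = 0.742, exact permutation p = 0.1). For AT1 it was -0.05 ± 0.06 (limma adjusted p = 0.765).

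With 3 libraries against 3 the exact two-sided test cannot give less than 0.1. The 9 TCDCA libraries against FCA can reach 0.00909 in that test. There Myd88 was lower by a log2 fold change of -0.12 (95% interval -0.27 to 0.03), with 7 of 9 treated libraries below all 3 FCA libraries (limma adjusted p = 0.508, exact permutation p = 0.0545). Leaving out AT10 replicate 3, the lowest library, brought the difference of AT10 to -0.07.

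Irak4 is the kinase that is recruited to MyD88 first, and Irak1 is the kinase it activates. Irak4 read 4.33, 5.54 and 4.79 FPKM in FCA, 4.96, 4.76 and 2.85 in AT01, 5.07, 5.31 and 4.63 in AT1, and 5.34, 4.91 and 4.64 in AT10. Except AT01 replicate 3 at 2.85 FPKM, all libraries were between 4.33 and 5.54 FPKM and the groups overlapped. The log2 fold change against FCA was 0.02 for AT10, 0.03 for AT1 and -0.20 for AT01, with limma adjusted p-values of 0.941, 0.911 and 0.829. Without AT01 replicate 3 the value of AT01 was -0.0016. A second record named Irak4, with no Ensembl transcript, was between 0.11 and 0.77 FPKM.

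Irak1 read 25.11, 22.42 and 22.41 FPKM in FCA, 22.12, 23.67 and 22.54 in AT01, 22.56, 24.32 and 21.68 in AT1, and 21.27, 23.95 and 21.41 in AT10. The groups overlapped, and the highest library, FCA replicate 1, was in the control group. The log2 fold change was -0.07 for AT10 (95% interval -0.27 to 0.13), -0.03 for AT1 (-0.21 to 0.16) and -0.03 for AT01 (-0.22 to 0.16). The 3 intervals together spanned -0.27 to 0.16, among the narrowest of the set.

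Traf6, the ubiquitin ligase downstream of the IRAK kinases, was higher in AT10 than in FCA without overlap. The record used read 2.18, 2.2 and 1.9 FPKM in FCA, 1.56, 1.88 and 2.53 in AT01, 2.73, 2.13 and 2.15 in AT1, and 2.43, 2.62 and 2.72 in AT10. All 3 AT10 libraries were above all 3 FCA libraries, while AT1 and AT01 overlapped FCA. The log2 fold change of AT10 was 0.22 ± 0.08 (SE, n = 3 against 3, 95% interval 0.01 to 0.42, limma adjusted p = 0.408, exact permutation p = 0.1), and it did not pass the adjusted threshold. AT1 differed from FCA by 0.11 and AT01 by -0.06 (limma adjusted p = 0.682 and 0.934).

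The Traf6 record used holds an assembled transcript without an Ensembl identifier, and the lower record of that name holds the Ensembl transcript. The lower record was between 0.47 and 0.8 FPKM in FCA, 0.7 and 1.05 in AT01, 0.53 and 0.94 in AT1, and 0.57 and 1.52 in AT10. With both records added, Traf6 was 2.98, 2.67 and 2.51 FPKM in FCA and 3, 4.14 and 3.66 in AT10, again without overlap, with the nearest libraries at 2.98 and 3 FPKM.

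The counts of members past each criterion were read against the share of all records past it. In AT10 against FCA, 0 of 7 members passed an adjusted p under 0.05 in limma, where 0.172% of all records tested did. At an unadjusted p under 0.05 it was 1 of 7 (Traf6), where 11.9% did. Without overlap between the groups were 2 of 7 (Traf6 and Myd88), beside 19.9% of all records tested without overlap. With any 1 of the 6 libraries left out, 0 of 7 passed the unadjusted threshold. The log2 fold change of Traf6 then ran from 0.17 to 0.25, with fewer libraries to test it. The median log2 fold change of the 7 was 0.02, against -0.01 over all records tested.

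In AT1 against FCA the members gave 0 of 7 by each of the 3 criteria. Over all records tested the shares were 0.0947% at the adjusted p, 11% at the unadjusted p and 19.9% without overlap, and the median of the members was -0.03, against 0.02. In AT01 against FCA the adjusted and the unadjusted p gave 0 of 7 each, beside 0.0947% and 6.6% of all records, and 1 of 7 did not overlap (Myd88), beside 14.0%. The median of the members was -0.06, against 0.00 over all records tested.

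The 9 TCDCA libraries together against FCA gave 0 of 7 at the adjusted p (0.0258% of all records), 0 of 7 at the unadjusted p (12%) and 0 of 7 without overlap (2.86%). Of the 7 members 3 were above FCA and 4 below, with a median of -0.04. The 4 comparisons share the FCA libraries and are not independent of each other.

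**Figure D3:**
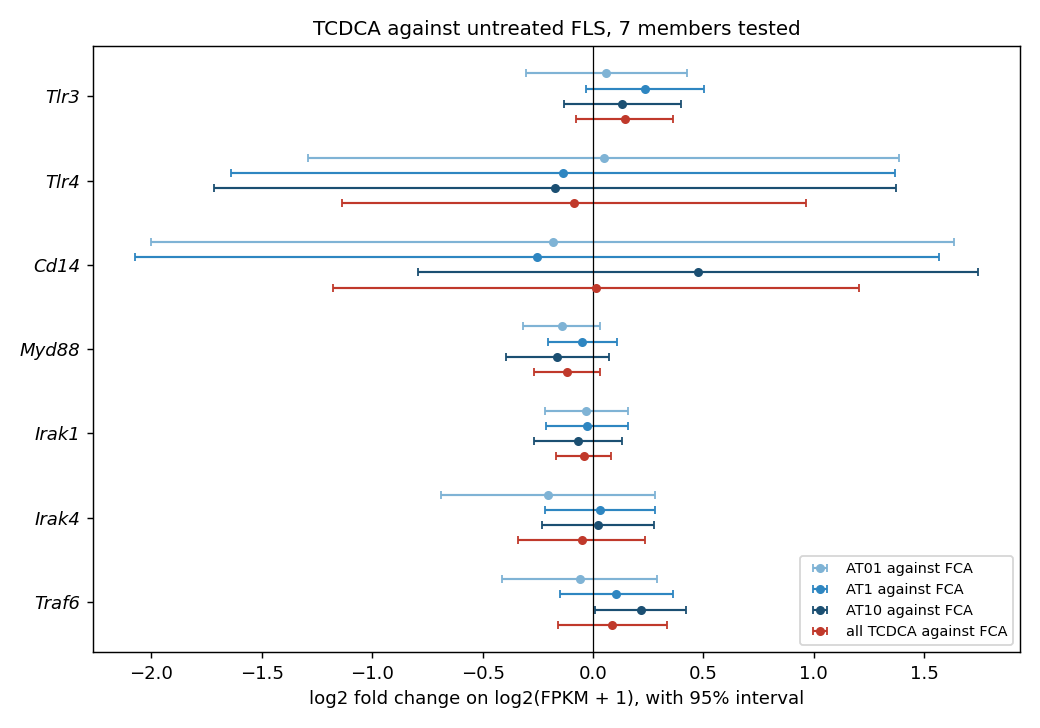
Log2 fold change of the 7 members tested, on the log2(FPKM + 1) scale (horizontal axis), for each TCDCA dose and for all 9 TCDCA libraries against FCA, with 95% intervals from limma. The intervals of Tlr4 and Cd14 are the widest and reach beyond 1, those of Irak1 are among the narrowest, and the interval of Traf6 in AT10 alone lies above 0.

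Between doses, 7 members were compared at 12 h in 3 pairs of groups. AT10 against AT1 gave 0 of 7 at the adjusted p (0.258% of all records), 0 of 7 at the unadjusted p (6.46%) and 1 of 7 without overlap (13.9%). That member was Cd14, with all 3 AT10 libraries above AT1 by a log2 fold change of 0.73 (95% interval -0.58 to 2.04, limma adjusted p = 0.796, exact permutation p = 0.1), although AT1 replicates 2 and 3 read 15.7 and 15.73 FPKM and the lowest AT10 library 16.36. AT10 against AT01 gave 0 of 7 at the adjusted p (0.0689%), 0 of 7 at the unadjusted p (4.97%) and 0 of 7 without overlap (11.1%). AT1 against AT01 gave 0 of 7 at the adjusted p (0.129%), 0 of 7 at the unadjusted p (3.43%) and 0 of 7 without overlap (8.6%). Traf6 differed most between AT10 and AT01 among the members other than Cd14, by 0.28 on the log2 scale (95% interval -0.07 to 0.62, limma adjusted p = 0.867).

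The spread between libraries of a group differed widely among the members. On the log2(FPKM + 1) scale the SD within groups was 0.93 for Cd14 and 0.87 for Tlr4, and 96.5% and 95.9% of all records tested had a smaller one. It was 0.08 for Irak1 and 0.09 for Myd88, where 9.54% and 15.8% of the records had a smaller one, and the median over all records was 0.17. Tlr3 (0.14), Traf6 (0.15) and Irak4 (0.20) lay near that median.

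For each member tested, the named record with the most similar pattern over the 12 libraries was looked up, which by this choice has a high Pearson correlation. It was Agps for Tlr3 (r = 0.955), Trpc4ap for Tlr4 (r = 0.816), Trappc2b for Cd14 (r = 0.885) and Mks1 for Myd88 (r = 0.959). For Irak1 it was Unc13b (r = 0.885), for Irak4 Sun1 (r = 0.956) and for Traf6 Cryba1 (r = 0.935). None of these was another member. Between different members the correlations ran from -0.49, of Tlr4 with Cd14, to 0.52, of Tlr4 with Irak1.

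The wider pathway was described by 6 lists with 87 genes, of which 77 had a record and 50 were tested. No gene of the lists passed an adjusted p under 0.05 in limma in any of the 4 comparisons with FCA. At an unadjusted p under 0.05, 6 were higher and 1 lower in AT10, 2 higher and 3 lower in AT1, 1 higher and 2 lower in AT01, and 3 higher and 1 lower in all TCDCA libraries, beside 11.9%, 11%, 6.6% and 12% of all records tested. With each library left out in turn, the total ran from 4 to 10 in AT10, 2 to 9 in AT1, 1 to 5 in AT01 and 1 to 8 in all TCDCA libraries. The lowest totals came without AT10 replicate 3, without FCA replicate 2, without FCA replicate 1 or 2, and without FCA replicate 1. The highest came without AT10 replicate 1, without AT1 replicate 2, without FCA replicate 3 or AT01 replicate 1, and without AT01 replicate 1. The median log2 fold change of the 50 was 0.05, 0.04, 0.03 and 0.05 in that order, beside -0.01, 0.02, 0.00 and 0.00 over all records tested. The genes given next with a difference are those of smallest p in their list, others are named for their level, and the values are descriptions.

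The other Toll-like receptors were listed near or at 0. In a table without counts a listed 0 need not mean that a gene is silent, and 373 of the 11611 records tested (3.21%) were listed at 0 in at least 1 library. Of 11 genes, 9 had a record, none reached a mean of 1 FPKM, and 7 stayed below 1 FPKM in every library. Tlr13 was listed at 0 in all 12 libraries, and Tlr9, the receptor for unmethylated CpG DNA, did not pass 0.02 FPKM. The highest were Cd180, a relative of TLR4, between 0.15 and 1.32 FPKM, and Tlr6, a partner of TLR2, between 0 and 1.13 FPKM.

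Of 8 co-receptors and receptor chaperones 6 were tested, and the means of the records used ran from 3.28 FPKM for Hmgb1 to 217 for Hsp90b1. Lbp, the lipopolysaccharide-binding protein that loads CD14, was between 173 and 225 FPKM, and Hsp90b1, the chaperone gp96 that folds Toll-like receptors, between 163 and 262 FPKM. Cnpy3, a cochaperone of gp96, was between 45.98 and 50.37 FPKM in FCA and between 41.27 and 43.12 in AT01, a log2 difference of -0.19 without overlap (limma adjusted p = 0.720). Hmgb1 is a nuclear protein that acts as a danger signal when released. The record used was between 2.47 and 2.93 FPKM in FCA and between 3.37 and 4.22 in AT10. Its log2 difference was 0.39 (limma adjusted p = 0.249). With the FPKM of all records of that name added up, the difference was larger, at 0.58, and did not pass the adjusted threshold either. Unc93b1, which carries endosomal receptors to their compartment, was between 5.93 and 6.24 FPKM in FCA and between 4.84 and 5.57 in AT1, a difference of -0.18 (limma adjusted p = 0.453). Hsp90b1 differed between AT10 and FCA by 0.24 (0.14 without FCA replicate 2) and Lrrc59 between AT01 and FCA by 0.08 (-0.01 without AT01 replicate 3).

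Of 19 further adaptors and kinases 12 were tested, among them the 3 parts of the IκB kinase complex. Ikbkb, a catalytic subunit, was 10.5 ± 0.47 FPKM in FCA and 8.04 ± 0.77 in AT10 (SD, n = 3), a log2 difference of -0.34 (limma adjusted p = 0.231). Chuk, the other catalytic subunit, was 4.82 ± 0.47 FPKM in FCA and 6.39 ± 1.09 in AT10, a difference of 0.34 (limma adjusted p = 0.407). Ikbkg, the regulatory subunit NEMO, was 0.45 above FCA in AT1 (limma adjusted p = 0.435). For the TCDCA libraries together it was 0.40 above FCA (limma adjusted p = 0.306), or 0.26 without FCA replicate 1. In the latter comparison the groups overlapped, with the lowest treated library at 2.05 FPKM, in AT01, and the highest FCA library at 2.26 FPKM. Traf3, an adaptor of the TRIF branch, differed between AT01 and FCA by -0.28 (limma adjusted p = 0.730). None of these genes passed the adjusted threshold.

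Among 12 negative regulators, 8 of them tested, Cyld was above FCA in every treated library. Cyld, a deubiquitinase that removes the chains TRAF6 builds, was 3.57 ± 0.09 FPKM in FCA, 3.98 ± 0.32 in AT01, 4.20 ± 0.43 in AT1 and 4.60 ± 0.42 in AT10 (SD, n = 3). All 9 TCDCA libraries were above all 3 FCA libraries, by 0.20 on the log2 scale (limma adjusted p = 0.362, exact permutation p = 0.00909). A lack of overlap of 9 libraries with 3 was found in 2.86% of all records tested. Tnfaip3, the ubiquitin editing enzyme A20, differed between AT10 and FCA by 0.32 (limma adjusted p = 0.532), or by 0.12 without AT10 replicate 3. Il1rl1, the interleukin 33 receptor, differed between AT01 and FCA by -0.37 (limma adjusted p = 0.824), a value of -0.60 without FCA replicate 2 and close to 0 without FCA replicate 3. Rnf216, a ubiquitin ligase, differed between AT1 and FCA by -0.11 (limma adjusted p = 0.621), or by -0.05 without AT1 replicate 1. Irak3, which restrains the other IRAK kinases, was between 5.85 and 9.60 FPKM.

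Of 17 cytosolic sensors and their partners 9 were tested. Pycard, the inflammasome adaptor ASC, was 2.53 ± 0.49 FPKM in FCA and 1.53 ± 0.18 in AT1, a log2 difference of -0.47 (limma adjusted p = 0.420). Ddx58, the RNA sensor RIG-I, was 1.28 ± 0.17 FPKM in FCA and 1.82 ± 0.18 in AT1, a difference of 0.31 (limma adjusted p = 0.428). Eif2ak2, the RNA-activated kinase PKR, differed between AT10 and FCA by 0.34 and Nlrp3 by 0.30 (limma adjusted p = 0.348 and 0.485), and without AT10 replicate 3 the value of Nlrp3 was 0.16. Nod1, a sensor of bacterial cell wall fragments, was between 2.07 and 3.70 FPKM, and Nod2 did not pass 0.13.

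Transcription factors and output genes were led by chemokines, and 15 of 20 were tested. Ccl2, a chemokine for monocytes, was between 1122 and 2737 FPKM, Cxcl1 between 323 and 996, and Il6 between 81.6 and 205, whereas Tnf did not pass 0.03 FPKM. In AT10, Cxcl2, a chemokine for neutrophils, was 4.29 ± 1.41 FPKM against 1.65 ± 0.80 in FCA (SD, n = 3), a log2 difference of 1.01 without overlap (limma adjusted p = 0.272). Ptgs2, the inducible cyclooxygenase, was 68.2 ± 28.8 FPKM in AT10 and 30.1 ± 12.3 in FCA, a difference of 1.16 with overlapping groups (limma adjusted p = 0.403).

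Jun, a part of the AP-1 transcription factor, was lower than FCA without overlap in AT1 and in AT01. It was 21.8 ± 1.63 FPKM in FCA, 17.5 ± 1.96 in AT1 and 17.6 ± 0.48 in AT01 (SD, n = 3), log2 differences of -0.30 and -0.29 (limma adjusted p = 0.428 and 0.655). In AT10 it was between 21.33 and 22.64 FPKM, inside the FCA range of 19.92 to 22.75. Cxcl1 differed between AT1 and FCA by -0.79 (limma adjusted p = 0.445), or by -0.49 without FCA replicate 2. For the TCDCA libraries together, Il6 was above FCA by 0.55 on the log2 scale (limma adjusted p = 0.339, exact permutation p = 0.0545). Its level in FCA was 106 ± 23.3 FPKM. The groups overlapped, with the lowest treated library at 109.33 FPKM, in AT1, and the highest FCA library at 128.11 FPKM. None of these output genes passed the adjusted threshold.

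**Figure D4:**
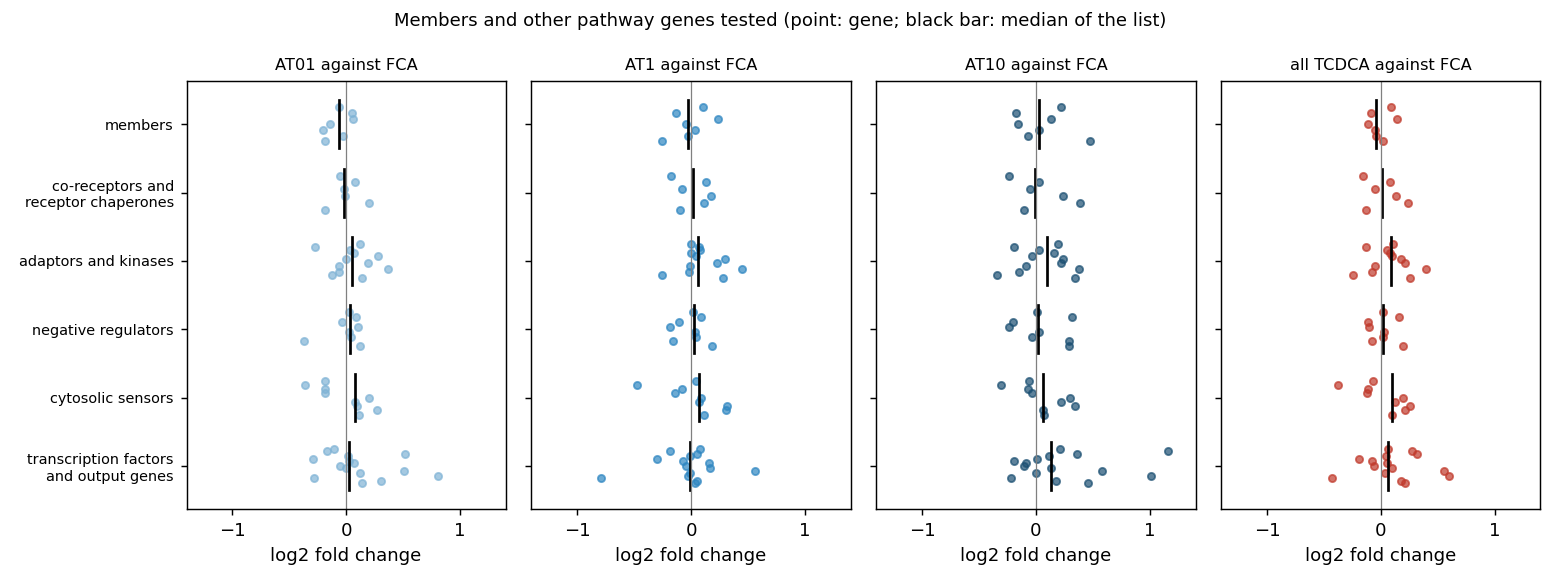
Log2 fold change against FCA (horizontal axes, log2(FPKM + 1) scale) of each member and each other pathway gene tested, by list, with a panel for each comparison. Points are genes and black bars are medians of a list. The medians lie close to 0 in every panel, and the points farthest from 0 are output genes.

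The markers of FLS were looked up in the cultures. Of 14 FLS markers 12 had a record and all 12 were tested, and in their lowest library S100a4 was at 2734 FPKM, Vim at 1942, Fn1 at 1154, Col1a1 at 571, Thy1 at 112 and Pdgfrb at 104. Pdpn, Cdh11, Prg4 and Fap were at 44.51, 25.72, 26.78 and 10.99 FPKM or more, and Vcam1 and Has1 were low, between 2.55 and 5.7 and between 0.88 and 2.67 FPKM. The summed level of the 12 was 8903 to 9526 FPKM in FCA, 8499 to 9303 in AT01, 8392 to 9164 in AT1 and 7423 to 8351 in AT10. The sum of AT10 was thus below that of FCA without overlap, with a median log2 fold change of -0.19 over the 12 against -0.01 over all records. The markers went both ways, with 2 higher and 2 lower at an unadjusted limma p under 0.05, where 11.9% of all records passed. In AT10, Fn1 and Thy1 were lower than FCA without overlap. Fap (10.99 to 12.3 FPKM in FCA, 13.44 to 15.33 in AT10) and Vcam1 (2.55 to 3.64 and 4.01 to 4.87) were higher without overlap. The part of the marker levels in the differences of AT10 given above was not tested. Markers of endothelium, 5 of 6 with a record, summed to at most 0.21 FPKM per library. Those of T and B cells (4 of 7 with a record) summed to at most 0.10 and those of neutrophils (5 of 6) to at most 0.85. The sum of all FPKM was between 284210 and 309696 per library, and since the table holds no counts, the reads behind a value are not known from it and no counting interval is given. The read totals per library that the study gives were not used here.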

How the data were processed

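Poly(A) RNA of 12 FLS libraries was measured by paired-end RNA-seq. Reads were trimmed with cutadapt and aligned with HISAT2, transcripts were assembled with StringTie, and the authors computed FPKM with StringTie and Ballgown and deposited it to 2 decimals for each gene record and library. The build of the alignment is not given in the sources used here. The labels and the study's text name different Illumina sequencers.

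The deposited FPKM were put on a log2 scale after adding 1. Records averaging 1 FPKM or more over the libraries, 11611 in number, were fitted with limma 3.58.1 in R 4.3.3 (trended eBayes), with the groups of 1 comparison at a time, and p-values were adjusted by Benjamini-Hochberg over all of them. Two-sided exact permutation tests of the difference of means and all counts were made in Python 3.11.15 (SciPy 1.17.1, NumPy 2.4.6, pandas 2.3.3, and Matplotlib 3.10.9 for figures). The fits were tested on simulated data with changes larger than the difference of any member, so smaller differences were not tested that way.

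The members and the lists were chosen with earlier results of these data known. All members were named in every library, and with a difference, of each pathway list, the 2 genes of smallest unadjusted p per comparison, a gene found in several comparisons being described in 1 or more of them. Other genes named by their level alone (Lbp, Irak3, Nod1, Nod2, Ccl2, Tnf, Tlr6, Tlr9, Tlr13, Cd180) were chosen after their values were seen. Likeness was the highest Pearson correlation over the 12 libraries. The alternatives changed the pseudocount (0.1), the filter (none, or an average of 10 FPKM or more), the libraries in the fit (all 12 in one), the test (an F test like that of Ballgown), the scaling (median of ratios) and the unit (records added up by name). The replicate number was also used as a block, and each library was left out in turn. Promoters are RefSeq sequences of GRCr8.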

Additional observations from a re-analysis of the deposited data

Results flagged for a closer look

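Irak4 in AT01 replicate 3 was 2.85 FPKM, the lowest of the 9 TCDCA libraries. Its gap to the nearest of the others was 0.715 of the range of the 9, above the critical value of 0.493 of Dixon's test. That test flags about 1 in 20 groups by chance, and it was run on 8 members over libraries of 3 doses. The nearest library, AT1 replicate 3, read 4.63 FPKM. The sum of both Irak4 records in the same library was 3.3 FPKM, also the lowest of the 12.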

How the results depend on the processing

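The members called at an adjusted p under 0.05 stayed at 0 under every alternative run, and so did the other pathway genes, in all 166 recomputed counts, and the F test in the manner of Ballgown gave 0 as well. At an unadjusted p under 0.05, 1 member was past it in AT10 against FCA, as with that F test, but 0 members were in the single fit over 12 libraries, with the block and without any 1 of the 6 libraries. Other comparisons rose from 0 to 1 member. These were AT1 against FCA without FCA replicate 3 and AT01 against FCA without the filter. AT10 against AT01 rose to 1 in the single fit and without AT01 replicate 3. Of the recomputed log2 fold changes, 963 kept their direction and side of the threshold and 48 turned their direction, each of them for a difference that was not called. With the F test, Tlr3 in AT01 turned to -0.0112 and Cd14 in all TCDCA libraries to -0.00513. With FPKM summed by gene name, Traf6 in AT01 turned to 0.0515. The other turns came with 1 library left out, and the cause was not tested.

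Over the libraries left out in turn, Tlr4 ran from -0.732 to 0.140 in AT10, -0.655 to 0.208 in AT1, -0.427 to 0.472 in AT01 and -0.563 to 0.178 in all TCDCA libraries. Cd14 ran from -0.127 to 0.784, -0.858 to 0.368, -0.787 to 0.455 and -0.591 to 0.321 in the same order. Irak4 ran from -0.0470 to 0.101 in AT10, -0.0373 to 0.110 in AT1 and -0.119 to 0.0286 in all TCDCA libraries, and Irak1 from -0.0709 to 0.0252 in AT1, -0.0577 to 0.0216 in AT01 and -0.0680 to 0.0107 in all TCDCA libraries. In AT01, Tlr3 ran from -0.0471 to 0.165, Traf6 from -0.187 to 0.0452 and Lrrc59 from -0.00905 to 0.148.

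With the replicate number as a replicate block, 0 members and 0 other pathway genes were called. Same-numbered libraries of different groups did not deviate together, with a median correlation of 0.003 over 18 pairs (from -0.11 to 0.09), beside -0.001 over 36 pairs of other numbers, which shows no shared deviation. The study calls the numbers repeats of the experiment, and whether they mark a shared culture or day is not stated.

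The counts behind the background shares moved by over 1.5 times. Of all records, 20 were called in AT10, 11 in AT1, 11 in AT01 and 3 in all TCDCA libraries against FCA, and the F test called 1 in each. A single fit over all 12 libraries called 2, 3, 5 and 5, the block 1, 0, 2 and 1, and a mean of at least 10 FPKM 7, 6, 7 and 1. With 1 library left out the counts reached 35 in AT10 (without AT10 replicate 3), 33 in AT1 (without AT1 replicate 2), 30 in AT01 (without AT01 replicate 2) and 22 in all TCDCA libraries (without FCA replicate 1). The members Tlr2, Tlr4 and Tlr3 lie at the low end of the table, where 2 decimals and values without counts limit what can be seen.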
